A study of Mus musculus with 6 samples.

Results

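The genes described here are 7 transcriptional targets of the tumour suppressor p53 (*Cdkn1a*, *Mdm2*, *Ccng1*, *Trp53inp1*, *Phlda3*, *Zmat3* and *Gdf15*) and the 3 sestrin genes (*Sesn1*, *Sesn2* and *Sesn3*), 10 of the 18324 gene rows of the count table, matched by mouse symbol. They were measured in B16-F10, a single mouse melanoma cell line, whose cultured cells were separated by flow sorting on the light scatter of melanin into high-pigmented cells (HPC, 3 libraries) and low-pigmented cells (LPC, 3 libraries). The labels name no engineered allele and no added agent, and they tell the 2 groups apart only by the sorted pigment content. Each HPC library shares a title suffix with 1 LPC library, and these couples are called pairs 1, 2 and 3. Nothing in the labels says whether the libraries came from separate cultures, so p-values here measure the spread between these libraries, which may be partly technical. The genes were chosen on earlier values of this same HPC against LPC comparison, so their differences between the groups are given as a description without a test.

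p53 is a transcription factor that is held at low level by its target Mdm2, a ubiquitin ligase, and is stabilised after DNA damage and other stresses. It then raises genes that stop the cell cycle, chiefly *Cdkn1a*, which encodes the cyclin-dependent kinase inhibitor p21, and genes that act in metabolism, repair and cell death. The sestrins are stress-induced proteins that bind the GATOR2 complex and lower the activity of the growth kinase mTORC1. *Sesn1* and *Sesn2* are known p53 targets, *Sesn2* and *Gdf15* also respond to the factor ATF4, and *Sesn3* is known as a target of FoxO factors. In the skin, p53 takes part in the tanning response to ultraviolet light.

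Promoters from RefSeq (GRCm38.p6, 250 bases before to 50 after a listed start of a gene) were matched for 8 of the 10 genes. There were 11 promoters in all, and *Trp53inp1* and *Zmat3* had no entry. The p53 half-site, a motif of 10 bases that reads the same on both strands, occurred in 4 of these promoters, of *Cdkn1a*, *Mdm2*, *Ccng1* and *Sesn1*. In the table as a whole, 8.36% of 32851 promoters of the same length held a half-site. A full site, taken as 2 half-sites at most 13 bases apart, occurred in 1 of the 11, a promoter of *Cdkn1a*, against 0.07% of all promoters. That stretch is shown as the only full site found in the 11 promoters. It lies at chr17:29090896-29090957 on the plus strand, from position -83 to -22 relative to the start used for this promoter. Capitals mark the half-sites, which are 12 bases apart. Only exact matches to the motif are marked, and a near match that directly follows the second half-site stays in small letters.

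Cdkn1a: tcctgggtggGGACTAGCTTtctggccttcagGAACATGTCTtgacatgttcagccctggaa

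The other 3 single half-sites are shown with up to 10 bases on either side, each on its gene's own strand, with capitals for the half-site. The capitals of *Mdm2* lie at chr10:117710935-117710944, those of *Ccng1* at chr11:40755462-40755471 and those of *Sesn1* at chr10:41887266-41887275. They begin at positions -186, -185 and -173 relative to the start used for each promoter. For *Sesn1* that start lies inside the gene, which spans chr10:41809935-41908424, and is not the gene's first start.

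Mdm2: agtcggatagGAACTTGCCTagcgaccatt

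Ccng1: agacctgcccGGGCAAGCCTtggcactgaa

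Sesn1: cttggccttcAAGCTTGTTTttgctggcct

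Such matches describe the letters of the window and are not evidence of binding. No binding was measured in these samples.

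Gene counts totalled 3819605 to 7311131 per library. The row RP23-81C12.3 and the 2 mitochondrial ribosomal RNA rows together took 66.1% of the gene counts in HPC and 34.8% in LPC of pair 2, against 5.05% to 6.99% elsewhere, so values of pair 2 rest on fewer counts. Levels are given as CPM, counts per 1000000 of a library size scaled by the trimmed mean of M-values (TMM). All 10 melanocyte lineage markers were detected, with a summed level of 4805 to 22462 CPM in HPC and 6510 to 18439 CPM in LPC. Of 6 fibroblast, 7 leukocyte, 4 endothelial and 5 keratinocyte markers, 3, 3, 2 and 1 had rows in the table. Their summed levels reached at most 33.2, 33.2, 11.6 and 24.4 CPM in HPC and 5.29, 3.31, 1.26 and 0 CPM in LPC, with the highest sums in HPC of pair 2. There were no rows for *Ptprc*, *Cd3e*, *Cd79a*, *Adgre1*, *Col3a1*, *Dcn* and *Lum*, and the part of these markers in the results was not tested.

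*Cdkn1a* (GRCm38 chr17:29090976-29100727, plus strand) was higher in HPC than in LPC in each pair. Its level was 401, 414 and 301 CPM in HPC of pairs 1, 2 and 3 and 211, 140.1 and 186 CPM in LPC. The lowest HPC library lay above the highest LPC library, so the groups did not overlap. The means were 372 ± 61.8 and 179 ± 36.1 CPM (SD, n = 3 each), and the fitted log2 fold change was 1.05 ± 0.37 (SE), or 2.08-fold. Within the pairs the log2 difference was 0.92, 1.56 and 0.69. An exon of the gene AC167363.2 lies on the opposite strand within *Cdkn1a*. Whether the counting used strand is not given in the sources used here, so what the overlap does to the count of *Cdkn1a* is not known.

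**Figure D1:**
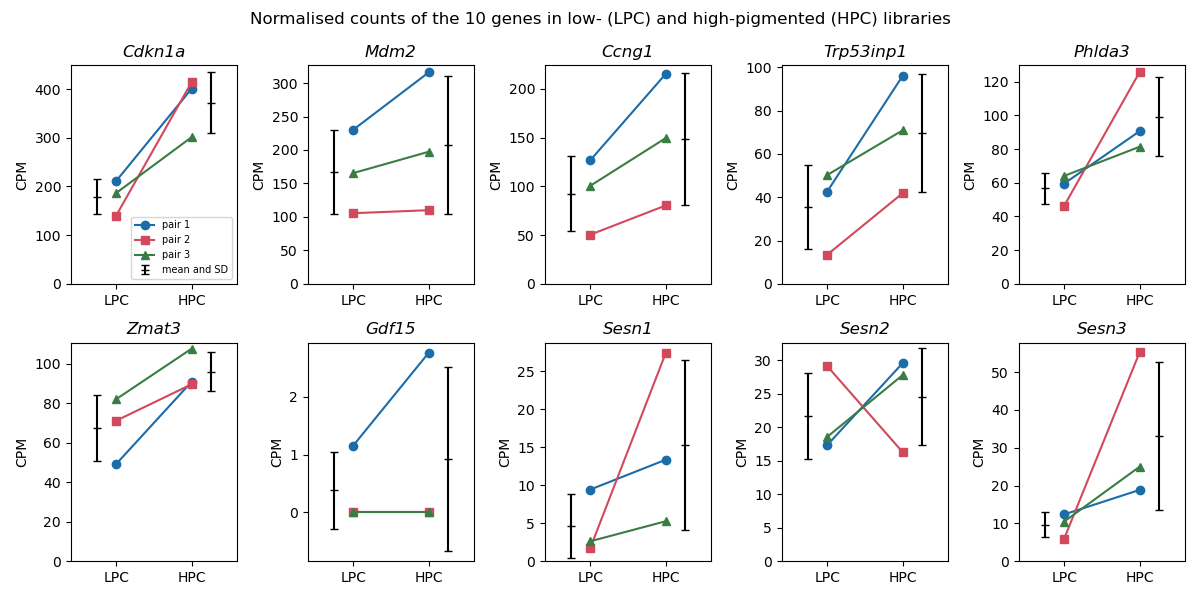
Normalised counts (CPM, vertical axes, linear, a separate scale for each gene) of the 10 genes in LPC and HPC libraries. Coloured symbols joined by lines are the libraries of 1 pair, and black marks are group means with SD (n = 3). The lines of 8 genes rise from LPC to HPC in every pair, the red line of *Sesn2* falls from 29.2 to 16.3 CPM, and *Gdf15* is at 0 in pairs 2 and 3.

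*Mdm2* and *Ccng1* are p53 targets that act back on p53. Mdm2 marks p53 for degradation, and cyclin G1, the product of *Ccng1*, works through Mdm2. *Mdm2* (chr10:117688875-117710758, minus strand) had 316, 110.0 and 197 CPM in HPC and 230.2, 105 and 165 CPM in LPC of pairs 1, 2 and 3. The HPC library was higher in each pair, with log2 differences of 0.46, 0.06 and 0.25, and the groups overlapped. The fitted log2 fold change was 0.32 ± 0.50 (SE). Without the HPC library of pair 1 it was -0.13. *Ccng1* (chr11:40748552-40755311, minus strand) had 215, 80.3 and 149 CPM in HPC and 127, 50.3 and 100.5 CPM in LPC. Its within-pair log2 differences of 0.76, 0.67 and 0.57 were the most even of the 9 genes tested, with an SD of 0.10. Because its level in pair 2 was low in both groups, the groups overlapped, and the fitted log2 fold change was 0.68 ± 0.51 (SE). With 1 library left out, which breaks a pair, it ranged from 0.31 (without HPC of pair 1) to 0.98 (without LPC of pair 1).

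*Trp53inp1*, *Phlda3* and *Zmat3* encode effectors of p53. The product of *Trp53inp1* acts in autophagy and in the stress response, Phlda3 binds membrane lipids in competition with the kinase Akt, and Zmat3 is an RNA-binding zinc finger protein. *Trp53inp1* (chr4:11156431-11174379, plus strand) had 96.2, 41.9 and 71.0 CPM in HPC and 42.6, 13.4 and 50.3 CPM in LPC of pairs 1, 2 and 3. Its within-pair log2 differences were 1.17, 1.62 and 0.49, although the HPC library of pair 2 lay below LPC of pairs 1 and 3. *Phlda3* (chr1:135766119-135769136, plus strand) had 90.6, 126 and 81.4 CPM in HPC and 59.5, 46.3 and 64.0 CPM in LPC, with no overlap. Its differences were 0.60, 1.43 and 0.34, so pair 2 carried the largest. *Zmat3* (chr3:32334792-32366014, minus strand) had 90.9, 89.6 and 108 CPM in HPC and 49.2, 71.2 and 82.1 CPM in LPC, again without overlap. The lowest HPC library of *Zmat3* lay close above the highest LPC library, and its within-pair differences were 0.88, 0.33 and 0.39. The fitted log2 fold changes of *Trp53inp1*, *Phlda3* and *Zmat3* were 0.97 ± 0.57, 0.81 ± 0.37 and 0.51 ± 0.37 (SE).

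*Gdf15*, which encodes a secreted stress cytokine of the TGF-beta family, was barely detected. It had 17 counts in HPC and 7 in LPC of pair 1 and 0 counts in the other 4 libraries. At 2.77 CPM the HPC library of pair 1 (exact Poisson 95% interval 1.61 to 4.43 CPM, counting error only) and at 1.16 CPM its LPC partner (0.465 to 2.38 CPM) had overlapping intervals. By the same exact interval, a count of 0 allows up to 0.431 CPM in HPC and 0.387 CPM in LPC of pair 3. In pair 2 it allows up to 2.15 CPM in HPC and 1.05 CPM in LPC. The level in pair 1 of either group thus lay above the limit in pair 3, while in HPC of pair 2 a level like that in LPC of pair 1 lies within the limit. *Gdf15* (chr8:70629393-70632456, minus strand) did not pass the filter on low counts and is the only 1 of the 10 genes that was not fitted.

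The sestrins were low and differed from each other in pattern. *Sesn1* (chr10:41809935-41908424, plus strand) had 13.3, 27.4 and 5.26 CPM in HPC and 9.42, 1.72 and 2.62 CPM in LPC of pairs 1, 2 and 3. The groups overlapped, and the low value in LPC of pair 2 rests on 6 counts (exact Poisson 95% interval 0.629 to 3.73 CPM). *Sesn3* (chr9:14275067-14333101, plus strand) had 18.9, 55.3 and 25.02 CPM in HPC and 12.4, 6.003 and 10.5 CPM in LPC, without overlap. For both genes pair 2 held the largest difference, 3.75 for *Sesn1* and 3.13 for *Sesn3* on the log2 scale. The other pairs gave 0.49 and 0.92 for *Sesn1* and 0.59 and 1.23 for *Sesn3*, in pairs 1 and 3. Fitted log2 fold changes of 1.71 ± 0.99 for *Sesn1* and 1.76 ± 0.63 for *Sesn3* (SE) became 0.72 ± 0.45 and 0.93 ± 0.30 in the fit without pair 2 and with the pairs as a block.

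*Sesn2* (chr4:132492032-132510501, minus strand), the sestrin known as a leucine sensor, went the other way in pair 2. It had 29.6, 16.3 and 27.8 CPM in HPC and 17.4, 29.2 and 18.6 CPM in LPC. The HPC library was higher by 0.76 and 0.57 on the log2 scale in pairs 1 and 3 and lower in pair 2, with a difference of -0.83. The fitted log2 fold change was 0.19 ± 0.51 (SE) with all 6 libraries, 0.66 ± 0.25 without pair 2, -0.10 without pair 1 and -0.013 without pair 3, the last 3 with the pairs as a block. *Sesn2* made up 16.5% of the sestrin counts in HPC and 79.1% in LPC of pair 2, and 44.3% to 58.6% in the other 4 libraries. The human symbol column of the table lists all 3 sestrins as SESN3, and *Trp53* as TP73 together with *Trp63*. Summed under that shared symbol, the sestrins had 61.8, 98.9 and 58.1 CPM in HPC and 39.2, 36.9 and 31.7 CPM in LPC. That sum was higher in HPC in each pair, with log2 ratios of 0.66, 1.42 and 0.87, and does not show the opposite course of *Sesn2*.

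**Figure D2:**
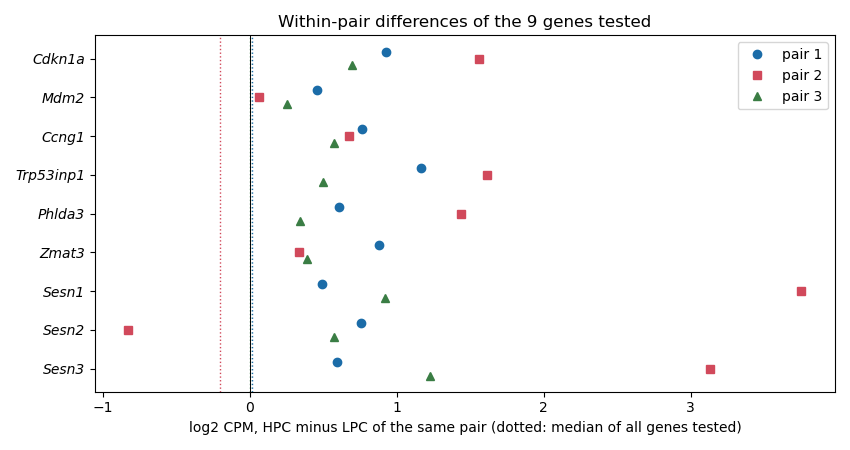
Difference in log2 CPM between the HPC and LPC library of each pair (horizontal axis) for the 9 genes tested; symbols are pairs and dotted lines the median of all 11324 genes in that pair. All points lie right of 0 except *Sesn2* in pair 2 at -0.83, and *Sesn1* and *Sesn3* have their widest points in pair 2.

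Across the 9 genes tested, 8 were higher in HPC in all 3 pairs, *Sesn2* being the exception, where 12.9% of all 11324 genes tested were. All 9 were higher in pairs 1 and 3, where 29.5% of all genes were. The groups did not overlap for *Cdkn1a*, *Phlda3*, *Zmat3* and *Sesn3*, 4 of 9, where 2.43% of all genes had every HPC library above every LPC library. These counts describe genes chosen with this comparison known, and nothing is drawn from them. The median log2 fold change was 0.81 over the 9 genes and -0.04 over all genes. Within pairs 1, 2 and 3 the median of the 9 was 0.76, 1.43 and 0.57, and that of all genes 0.016, -0.20 and -0.0024. The direction of the 8 genes was the same with size factors by RLE (relative log expression), with upper-quartile scaling and with total counts without the 3 abundant rows. With plain total counts, which left the median of all genes in pair 2 at -0.90, *Ccng1*, *Mdm2* and *Zmat3* were lower in HPC of pair 2.

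The fit across all genes called 0 genes, or 0% of 11324, between HPC and LPC in edgeR's quasi-likelihood test at an adjusted p under 0.05, and so 0 of the 9. The unadjusted p was under 0.05 for 38 genes, and DESeq2 called 0 genes as well. The biological coefficient of variation common to all genes was 71.6%, so a count of 0 does not show that levels were equal. Without pair 2 and with the pairs as a block, edgeR called 0.932% of 11906 genes as higher in HPC, among them *Cdkn1a*, *Ccng1* and *Trp53inp1*, 3 of the 9. Their log2 fold changes in that fit were 0.80 ± 0.13, 0.66 ± 0.15 and 0.82 ± 0.19 (SE). These calls rest on the libraries of pairs 1 and 3 alone. The same fit without pair 1, or without pair 3, called 0 genes. With all 6 libraries, the block and limma-voom's sample weights, 0.238% of genes were called higher in HPC, *Cdkn1a* alone among the 9. These fits share the libraries on which the genes were chosen and are descriptions too.

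**Figure D3:**
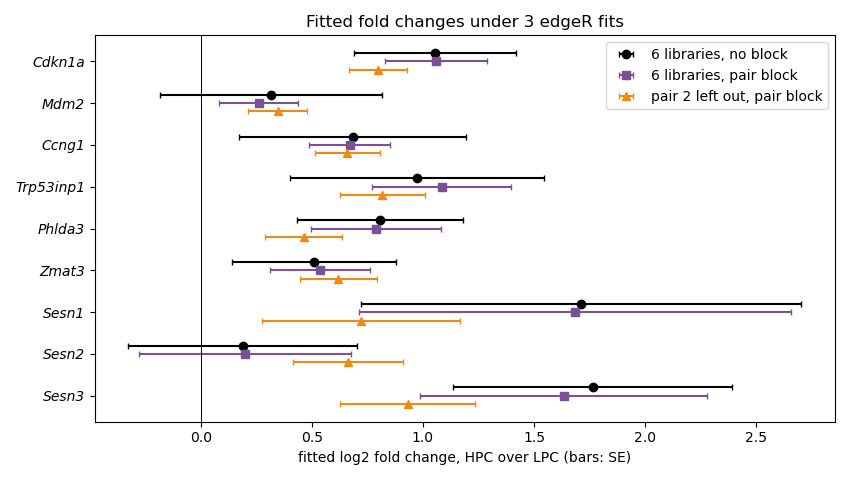
Fitted log2 fold changes of HPC over LPC with SE (horizontal axis) for the 9 genes tested under 3 edgeR fits: all 6 libraries without a block (circles), with the pairs as a block (squares), and without pair 2 with the block (triangles). *Ccng1* has nearly the same value under these fits (0.68, 0.67 and 0.66), while *Sesn1* and *Sesn3* move from above 1.6 to 0.72 and 0.93 without pair 2.

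The level of a gene across the 3 title suffixes, whatever the pigment group, was a contrast that the choice of genes did not use. In edgeR's test of the suffix term with the group in the model, 0 of the 9 genes passed an adjusted p under 0.05, as did 0% of all genes (smallest adjusted p 0.0593). The unadjusted p was under 0.05 for 3 of the 9 and for 22.5% of all genes. These were *Ccng1* (edgeR, adjusted p = 0.108), *Mdm2* (adjusted p = 0.111) and *Trp53inp1* (adjusted p = 0.199). All 3 had their lowest level in pair 2 in both groups. *Cdkn1a*, *Phlda3*, *Sesn2* and *Sesn3* had adjusted p values of 0.758, 0.982, 0.999 and 0.936 in the same edgeR test, which does not show that their levels were equal. DESeq2's likelihood ratio test of the same term called *Ccng1* (adjusted p = 0.00406) and *Mdm2* (adjusted p = 0.00269), 2 of 9, and 17% of all genes.

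Between pairs 1 and 3 alone, edgeR called 4 of the 9 genes and 25.5% of all genes at an adjusted p under 0.05, with the group in the model. *Sesn1* was lower in pair 3, with a log2 difference of -1.58 ± 0.45 (SE; adjusted p = 0.0110). *Mdm2* (-0.58 ± 0.13, adjusted p = 0.00221) and *Ccng1* (-0.43 ± 0.15, adjusted p = 0.0309) were lower too. *Zmat3* was higher in pair 3, by 0.48 ± 0.17 (adjusted p = 0.0419). *Mdm2* and *Zmat3*, both p53 targets, thus differed in opposite directions between these pairs.

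*Trp53*, the gene of p53 itself, was low and went in different directions in different pairs. It (chr11:69580359-69591873, plus strand) had 9.11, 39.6 and 11.1 CPM in HPC and 13.6, 7.43 and 14.2 CPM in LPC of pairs 1, 2 and 3. It was lower in HPC in pairs 1 and 3 and higher in pair 2, with log2 differences of -0.56, -0.34 and 2.36 in that order. Its fitted log2 fold change of 0.74 ± 0.75 (SE; edgeR, adjusted p = 0.9996) turned to -0.22 without the HPC library of pair 2. *Mdm4*, a relative of Mdm2 that binds and inhibits p53, had a fitted log2 fold change of -0.026 ± 0.64 (SE; adjusted p = 0.9996). Of 18 genes tested on the list of p53 and its regulators, 0 passed the test in either direction and 5 had a positive fold change, with a median of -0.19. Of the 18, 0 were higher in HPC in every pair and 6 were lower in every pair, where 17.2% of all genes were. They were *Brd7*, *Crebbp*, *Ep300*, *Rpl11*, *Rpl5* and *Trp53rk*. In pair 2 *Trp53rk* was near the floor, at 0 CPM in HPC and 1.14 CPM in LPC, and *Rpl5* had a log2 difference of only -0.049. *Crebbp*, an acetyltransferase and coactivator of p53, had a fitted log2 fold change of -1.45 ± 0.86 (SE; adjusted p = 0.9996), which was -0.15 without the LPC library of pair 2.

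Of 38 other p53 targets tested, 0 passed in either direction in edgeR's test of all 6 libraries, 25 had a positive log2 fold change and the median was 0.23. In every pair 9 were higher in HPC (12.9% of all genes were) and 1, *Plk3*, was lower (17.2% of all genes were). In pair 2 *Plk3* had 0 CPM in HPC, and *Ckap2*, among those higher, had 0 CPM in LPC. Those higher in every pair include *Ercc5*, which encodes a repair endonuclease, with log2 differences of 0.80, 1.12 and 0.62, and *Ei24*, with 0.82, 1.03 and 0.24. The other 7 were *Ak1*, *Btg2*, *Ckap2*, *Ptp4a3*, *Tnfrsf10b*, *Trim7* and *Trp53inp2*. *Ptp4a3*, a protein phosphatase gene, had the smallest p of those higher, with 24.7, 107 and 27.1 CPM in HPC and 12.6, 25.4 and 18.9 CPM in LPC and a fitted value of 1.47 on the log2 scale ± 0.67 (SE; adjusted p = 0.9996). It was 0.46 without the HPC library of pair 2. *Sertad1* had the smallest p of those lower, with -0.62 ± 0.60 (SE; adjusted p = 0.9996). The death gene *Bax* had a fitted log2 fold change of 0.22 ± 0.85 (SE; adjusted p = 0.9996). Without pair 2 and with the block, *Ckap2* (1.08, adjusted p = 0.0103) and *Psrc1* (1.08, adjusted p = 0.0419) rose in edgeR's test, both of them genes of the mitotic spindle and 2 of 38 where 0.932% of all genes were called higher.

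p21 binds cyclins, cyclin-dependent kinases and the replication clamp Pcna. Of 12 such genes tested, 0 passed with all 6 libraries and the median was 0.23. That median was -1.59 without the HPC library of pair 1, 1.16 without the LPC library of pair 1, 0.033 with the block and -0.41 without pair 1 and with the block. *Ccnd2*, *Cdk1* and *Cdk2* were higher in HPC in every pair while *Ccna2*, *Cdk4* and *Pcna* were lower in every pair, 3 of 12 each, where 12.9% and 17.2% of all genes were. The log2 difference of *Cdk4* was only -0.0052 in pair 3. *Ccna2* was low in pairs 2 and 3, with 3.49 and 1.87 CPM in HPC and 4.29 and 3.46 CPM in LPC. *Cdk2*, a kinase that p21 inhibits, had 265, 66.9 and 321 CPM in HPC and 160, 7.43 and 176 CPM in LPC, with log2 differences of 0.73, 3.11 and 0.87. Exon sequence of the pigment gene *Pmel* lies on the opposite strand of *Cdk2*, and what the overlap does to the count of *Cdk2* is not known. *Cdk1*, the kinase of mitosis, had 276, 8.73 and 25.8 CPM in HPC and 149, 3.43 and 13.3 CPM in LPC. Both kinases rose in the edgeR fit without pair 2 and with the block, 2 of 13 genes where 0.932% of all genes were called higher, *Cdk2* by 0.79 ± 0.13 (SE; adjusted p = 0.00229) and *Cdk1* by 0.91 (adjusted p = 0.00369).

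p21 is known to repress cell cycle genes through the DREAM complex. *Top2a*, the topoisomerase of mitotic chromosomes, had 349, 50.1 and 22.8 CPM in HPC and 183, 17.2 and 9.76 CPM in LPC. It was higher in HPC in each pair, as *Cdkn1a* was, with log2 differences of 0.93, 1.53 and 1.20. Its log2 fold change was 1.01 ± 1.27 (SE; edgeR, adjusted p = 0.9996) with all 6 libraries and 1.04 ± 0.16 (adjusted p = 0.000888) without pair 2 and with the block. Leaving out 1 library moved it between -0.97 (without HPC of pair 1) and 3.41 (without LPC of pair 1). Of the 21 genes tested on this list, 0 passed with all 6 libraries and 18 had an unadjusted p under 0.05 across the suffixes, where 22.5% of all genes did. *Birc5*, *Mcm7*, *Top2a* and *Ube2c* were higher in HPC in every pair, 4 of 21, and *Cdc20* was lower in every pair, where 12.9% and 17.2% of all genes were. The log2 difference of *Mcm7* was only 0.0078 in pair 1 and 0.036 in pair 3, and that of *Cdc20* only -0.041 in pair 1. In LPC of pair 2 *Ube2c* had 0 CPM. *Top2a* was the only 1 of 24 that passed without pair 2 and with the block, where 0.932% of all genes were called higher and 0.37% lower. The median of the list was 0.11 with all 6 libraries, -2.47 without the HPC library of pair 1, 2.41 without the LPC library of pair 1 and -0.018 with the block, so it has no steady direction. *Mcm2*, with the smallest p of those lower, had -0.17 ± 0.69 (SE; adjusted p = 0.9996), and it ranged from -0.80 to 0.64 with 1 library left out.

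Lists tied to the sestrins held 0 genes that passed in the edgeR fit of all 6 libraries. Sestrin partners, the GATOR complexes, the kinase AMPK and mTORC1 had a median log2 fold change of -0.11 over 36 genes, 15 of them positive, and the median ranged from -0.36 to 0.12 with 1 library left out. *Mlst8*, a subunit of mTORC1, had the smallest p of those higher, with log2 differences of 0.96, 0.93 and 0.52 and a fitted value of 0.76 ± 0.56 (SE; adjusted p = 0.9996). Exon sequence of *Bricd5* lies on the opposite strand of *Mlst8*, with the same limit as for *Cdk2*. *Lamtor2*, a subunit of the lysosomal anchor of mTORC1, had -0.91 ± 0.69 (SE; adjusted p = 0.9996), with a difference of -2.09 in pair 2, and -0.14 without that pair and with the block. *Srxn1*, which encodes sulfiredoxin, fell by 0.56 on the log2 scale in edgeR without pair 2 and with the block (adjusted p = 0.0219), where 0.37% of all genes were called lower.

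FoxO factors and their targets had a median of 0.08 over 17 genes, which ranged from -0.18 to 0.38 with 1 library left out. In every pair 2 of the 17, *Bcl2l11* and *Fbxo32*, were higher in HPC, where 12.9% of all genes were. *Foxo1* and *Foxo3*, the factors known to raise *Sesn3*, had log2 fold changes of 0.68 ± 0.59 and -0.22 ± 0.39 (SE; edgeR, adjusted p = 0.9996 for both). The value of *Foxo1* came from pair 2, with log2 differences of -0.053, 1.82 and 0.097 in pairs 1, 2 and 3, and was 0.016 without that pair and with the block. *Fbxo32*, a ubiquitin ligase gene and FoxO target, had 16.3, 19.2 and 21.5 CPM in HPC and 7.11, 1.72 and 12.28 CPM in LPC, without overlap. Its fitted log2 fold change was 1.42 ± 0.80 (SE; edgeR, adjusted p = 0.9996). An exon of *Gm15943* lies on its opposite strand. Like *Sesn3*, *Fbxo32* had its largest log2 difference in pair 2, 3.25, against 1.16 and 0.79 in pairs 1 and 3. Its low value in LPC of pair 2 rests on 6 counts. *Insr*, the insulin receptor gene, had -0.71 ± 0.77 (SE; adjusted p = 0.9996), with differences of 0.14, -2.99 and -0.45 in pairs 1, 2 and 3, and -0.17 without pair 2 and with the block.

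ATF4 and its targets form the program known to raise *Sesn2* and *Gdf15*. Of 27 of these genes tested, 22 had a negative log2 fold change with a median of -0.27, and 13 were lower in HPC in every pair against 17.2% of all genes. *Atf4* itself had log2 differences of -0.21, -0.15 and -0.14. *Nars*, an asparaginyl-tRNA synthetase gene, had 318, 265 and 329 CPM in HPC and 439, 511 and 407 CPM in LPC, without overlap, and its fitted fold change on the log2 scale was -0.57 ± 0.34 (SE; edgeR, adjusted p = 0.9996). In that test 0 of the 27 passed. *Aldh1l2*, *Atf5* and *Slc7a11*, 3 of 27 where 0.37% of all genes were called lower, fell in the edgeR fit without pair 2 and with the block, by 0.68, 0.75 and 0.51 on the log2 scale (adjusted p = 0.0477, 0.0102 and 0.0413). *Nupr1*, a stress factor, had the smallest p among those higher, at 0.57 ± 0.47 (SE; adjusted p = 0.9996). Its differences were -0.28, 1.08 and 0.49, and the fitted value was 0.063 without the HPC library of pair 2.

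**Figure D4:**
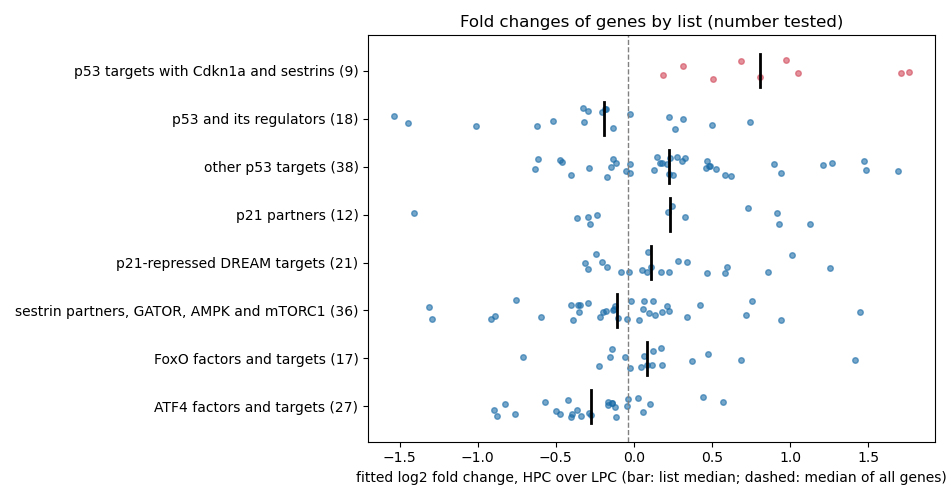
Fitted log2 fold changes of HPC over LPC (horizontal axis, 6 libraries, no block) of single genes by list, with the number tested in brackets. Each point is a gene, the black bar is the list's median and the dashed line the median of all genes tested (-0.04). The 9 genes, chosen with this comparison known, lie right of 0 with a median of 0.81. The medians of the other lists lie between -0.27 and 0.23 in this fit, and nothing is drawn from the difference. With 1 library left out, those of the p21 partners and the DREAM targets range from -1.59 to 1.16 and from -2.47 to 2.41, and that of the 9 genes from 0.59 to 0.98.

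The profile nearest to that of *Cdkn1a* over the 6 libraries was sought among 7781 other genes with a mean of at least 10 CPM, as the root mean square distance of mean-centred log2 CPM. *Fbxo34* was nearest at 0.17, then *Phlda3* at 0.20 and *Stx8* at 0.23, where the median distance was 0.87. *Fbxo34*, which encodes an F-box protein, had 13.2, 15.7 and 11.7 CPM in HPC and 6.78, 5.15 and 8.61 CPM in LPC. An exon of *Gm35166* lies on the opposite strand of *Fbxo34*. *Stx8*, a syntaxin gene of endosomal fusion, had 24.7, 35.5 and 21.3 CPM in HPC and 19.3, 11.7 and 18.5 CPM in LPC. In each of the 3, as in *Cdkn1a*, pair 2 held the largest log2 difference and the HPC and LPC libraries did not overlap. Of all genes tested, 2.43% had every HPC library above every LPC library. The 3 were picked for closeness to *Cdkn1a* over these same libraries, so the likeness follows from the choice and nothing is drawn from it.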

How the data were processed

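Expression was measured by 3′-end sequencing (QuantSeq forward, per the labels' protocols), in which reads come from near the end of a transcript. The table deposited by the authors holds unnormalised read counts for each gene, made with HTSeq, per the name and tally rows of the table; STAR and GRCm38 are named in the submitters' processing notes, and versions, annotation and the use of strand are not given in the sources used here. Genes were tested with edgeR 4.0.16 in R 4.3.3 (TMM, filterByExpr at a minimum count of 10, robust quasi-likelihood fits, Benjamini-Hochberg adjustment over all genes), with limma 3.58.1 and DESeq2 1.42.0 as alternatives. For differences within a pair, log2 CPM was computed after adding a prior count of 2. Tally rows stayed out of totals and tests. Figures were drawn with matplotlib 3.10.9. Positions are from GENCODE vM21 (GRCm38). Transcript stretches of at least 100 bases with at least 95% identity (BLAST 2.17.0) join *Cdkn1a* to 97, *Mdm2* to 63, *Sesn3* to 21 and *Zmat3* to 8 other genes, which makes the counts of these 4 uncertain; the other 6 have none.

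The title suffix was taken to pair libraries because deviations from the group means correlated across genes by 0.466, 0.316 and 0.422 in pairs 1, 2 and 3, above the minimum of 0.1. Each group mean holds only 3 libraries, so these correlations depend on each other. Libraries of different suffix were not compared in this way, so the correlations cannot decide what the suffix marks. The members and gene lists were chosen with earlier results of these data known. Named are all 10 genes, *Trp53*, *Mdm4*, from each list the lowest p among higher and among lower genes (mean of at least 10 CPM), and the 3 profiles nearest to *Cdkn1a*. Further genes were named after their values were seen, among them those that passed without pair 2 and those higher or lower in every pair.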

Additional observations from a re-analysis of the deposited data

How the results depend on the processing

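The count of genes called between HPC and LPC was 0 in edgeR with all 6 libraries. It became 155 when pair 2 was left out with the pairs as a block, and 34 with limma-voom's sample weights and the block. Over the pathway lists the count of 0 became 9 and 3. Without pair 1, or without pair 3, and with the block, the count of genes called was 0. The paired fit with all 6 libraries (replicate block) called 0 genes (median of the 9 genes 0.79) and changed no other call. The suffix comparison called 0 genes with TMM, 18 with RLE, 226 without a filter, 1929 with DESeq2, 89, 3035 and 26 without pair 1, 2 and 3. Leaving out 1 library at a time moved the median of the 9 genes between 0.59 and 0.98, Trp53 between -0.22 and 1.07, Mdm4 between -0.31 and 0.58, Pcna between -1.18 and 0.30, Mcm2 between -0.80 and 0.64 and Top2a between -0.97 and 3.41. Trp53 reversed to -0.47 without pair 2 and to -0.34 with sample weights. Mdm4 reversed to 0.051 with the block, 0.22 without pair 2, 0.23 without pair 3 and 0.22 with sample weights. Mcm2 reversed to 0.078 without pair 1. The cause was not tested. Upper-quartile scaling, plain totals and the summed sestrins were added after seeing the data. Depth limits Gdf15 and the sestrins in pair 2.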
